A study of Mus musculus with 24 samples.

Results

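The genes described here encode the respiratory chain and the ATP synthase, the 5 protein complexes (I to V) of the inner mitochondrial membrane. They were chosen by name from the table of 18205 genes, as the families Nduf (complex I), Sdha to Sdhd (complex II), Uqcr (complex III), Cox4 to Cox8 (complex IV) and Atp5 (complex V), with the genes of mitochondrial DNA named mt-Nd, mt-Cytb, mt-Co and mt-Atp. Of 103 matching names, 100 had a value of at least 10 in at least 3 of the 24 libraries, as did 15037 genes of the whole table. The 3 that did not were Cox4i2, an isoform known from lung, at 0 to 5.62, Cox6a2, an isoform of heart and skeletal muscle, at 0 to 11.3, and Ndufab1-ps, a pseudogene, at 0 to 4.90. The 100 members comprised 87 genes of the nuclear genome and 13 of the mitochondrial genome. Complex I had 44 nuclear and 7 mitochondrial members, complex II 4 nuclear members, complex III 8 nuclear and 1 mitochondrial, complex IV 15 nuclear and 3 mitochondrial, and complex V 16 nuclear and 2 mitochondrial. Of the 44 nuclear members of complex I, 8 are Ndufaf assembly factors, which help to build the complex and do not remain in it. Some names are historical: Ndufa4 belongs to complex IV, Ndufa4l2 is its paralogue, Cox7a2l links complexes III and IV into supercomplexes, and Atp5s is a coupling factor rather than a core subunit of the synthase.

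The respiratory chain passes electrons from NADH (at complex I) and succinate (at complex II) through ubiquinone to complex III, through cytochrome c to complex IV and from there to oxygen. Complexes I, III and IV pump protons as they do so, and complex V, the ATP synthase, uses the returning protons to make ATP. Complex II is made of nuclear products alone, while the other complexes combine nuclear subunits with a few hydrophobic ones encoded by mitochondrial DNA, which is transcribed as long precursors by a dedicated polymerase. Primed pluripotent cells of the epiblast are known for a metabolism that leans on glycolysis beside respiration.

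Transcripts were measured by polyA RNA sequencing at 4 stages of a mouse cell culture. Epiblast stem cells (EPI) grew in N2B27 with 20 ng/ml activin A, 12.5 ng/ml FGF2 and 175 nM NVP. Primitive streak cells (PS) came after 16 h in 40 ng/ml activin A with 3 µM CHIR, which activates WNT signalling. Definitive endoderm was then made in 100 ng/ml activin A with 100 nM LDN, an inhibitor of BMP receptors, and was taken at 24 h (DE1) and at 48 h (DE2). Cells were harvested after 21 h with the degrader dTAG13 or the vehicle DMSO, which per the labels went in at the EPI, PS or DE1 stage, and all cells, the DMSO groups included, carried OTX2 fused to dTAG and EGFP on a BL6/129 hybrid background. OTX2 is a homeobox protein that regulates transcription in epiblast and anterior endoderm, and dTAG13 sends the fusion protein to the proteasome. Each stage had its own 21 h of treatment, so steps between stages with dTAG13 compare separately treated cultures rather than a culture followed through depletion. Each of the 8 groups had 3 libraries, 1 from each of the cell lines 7H, 7H1 and 7H2, and how these lines relate to each other is not stated. The p-values therefore speak for the spread between these 3 lines. Values are normalised read counts, and differences are log2 fold changes of the value plus 1 with their standard error (SE). Where a pair of values follows a gene with no arm named, the first is with dTAG13 and the second with DMSO. A gene was called where limma's Benjamini-Hochberg adjusted p, taken over all 15037 genes, was under 0.05. In bulk libraries, fewer cells of a type and less RNA per cell cannot be told apart.

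Library totals were 24.4 to 27.2 M reads after the authors' normalisation, and 15260 to 16536 genes lay above 0. The stage labels were checked against marker lists: the summed level of 6 epiblast markers was highest in EPI, that of 5 primitive streak markers in PS, and that of 6 definitive endoderm markers in DE1. With dTAG13 the primitive streak markers summed to 33116 to 34539 in DE1, within their range in PS of 30895 to 41957. The Otx2 transcript, which does not report on the depletion of the protein, averaged 2535, 2491, 13173 and 12470.2 with dTAG13 in EPI, PS, DE1 and DE2, against 1662, 3096, 9948 and 10160.0 with DMSO. It was not called at any stage (adjusted p of 0.73, 0.702, 0.253 and 0.336), but was at all 4 with the cell line as a block (adjusted p of 0.00222, 0.0377, 0.00256 and 0.0104).

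The members took 2.38 to 3.52% of a library's total. Per kb of exon, averaged over the 24 libraries, the 13 mitochondrial genes ranged from 8853 (mt-Nd3) to 94854 (mt-Co1, the catalytic subunit of complex IV), with a median of 34268, against a nuclear median of 998. The highest nuclear members per kb were Atp5b and Atp5a1, the catalytic and the regulatory subunit of the rotary head of the synthase, at 9921 and 8872. They lay within the mitochondrial range, Atp5b beside mt-Nd6 at 9919 and Atp5a1 beside mt-Nd3. The nuclear members of complex I had the lowest median of the nuclear groups, 679 per kb, while complexes II, III, IV and V had 1346, 2022, 1706 and 1268. Exon length here joins all annotated exons of a gene, so it can exceed that of any single transcript and lower the value per kb. At the bottom were Atp5s at 30.4 and Ndufa4 at 8.57 per kb. Ndufa9, a peripheral subunit of complex I, was listed at exactly 0 in 5 libraries (3 of EPI and 2 of DE1) and at up to 569.7 elsewhere. Its fold changes, drawn as crosses in the strip plots where they pass the axis, are therefore not read here, and it was called in no comparison. Members with near-identical processed copies in the genome, common in these families, are uncertain, because no source used here names the counting method or its use of strand. The same holds where genes overlap on mitochondrial DNA, as mt-Nd4l and mt-Nd4, mt-Atp8 and mt-Atp6, and mt-Nd5 and mt-Nd6 on opposite strands do.

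Summed over members, the means of the nuclear and the mitochondrial genes followed different courses through the stages. The nuclear sum had means of 242338, 304807, 258543 and 185495 with dTAG13 in EPI, PS, DE1 and DE2, against 260364, 297984, 263943 and 200086 with DMSO. Its means were thus highest at PS and lowest at DE2 in both arms. In 7H with DMSO, however, PS (268171) lay below EPI (274881) and DE1 (270811). The mitochondrial sum had means of 483444, 389464, 453871 and 514950 with dTAG13, against 491836, 439144, 537499 and 555098 with DMSO, lowest at PS and highest at DE2. In EPI with DMSO it was 423952, 626457 and 425099 in 7H, 7H1 and 7H2, so that 7H1 stood apart there. Single lines departed from the order of the mitochondrial means. With dTAG13, 7H was lowest in DE2 (437866). With DMSO, 7H was lowest in EPI, 7H1 highest in EPI, and 7H2 highest in DE1 (543042, against 515299 in DE2). The ratio of the mitochondrial to the nuclear sum was 2.31, 2.99 and 3.05 in DE2 with dTAG13 and 2.82, 2.87 and 2.64 in DE2 with DMSO, against 1.87, 1.96 and 1.46 in DE1 with dTAG13 and 2.01, 1.96 and 2.15 in DE1 with DMSO. All 6 DE2 libraries lay above all 6 DE1 libraries. EPI had ratios of 1.79, 2.27 and 1.96 with dTAG13 and 1.54, 2.52 and 1.65 with DMSO. PS had ratios of 1.72, 1.13 and 1.06 with dTAG13 and 1.78, 1.66 and 1.09 with DMSO. The DE2 ratio was 1.24 to 2.09 times the DE1 ratio within a line with dTAG13 and 1.23 to 1.46 times with DMSO. No p was computed for these sums. How far polyA sequencing captured the mitochondrial transcripts at each stage was not measured.

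**Figure D1:**
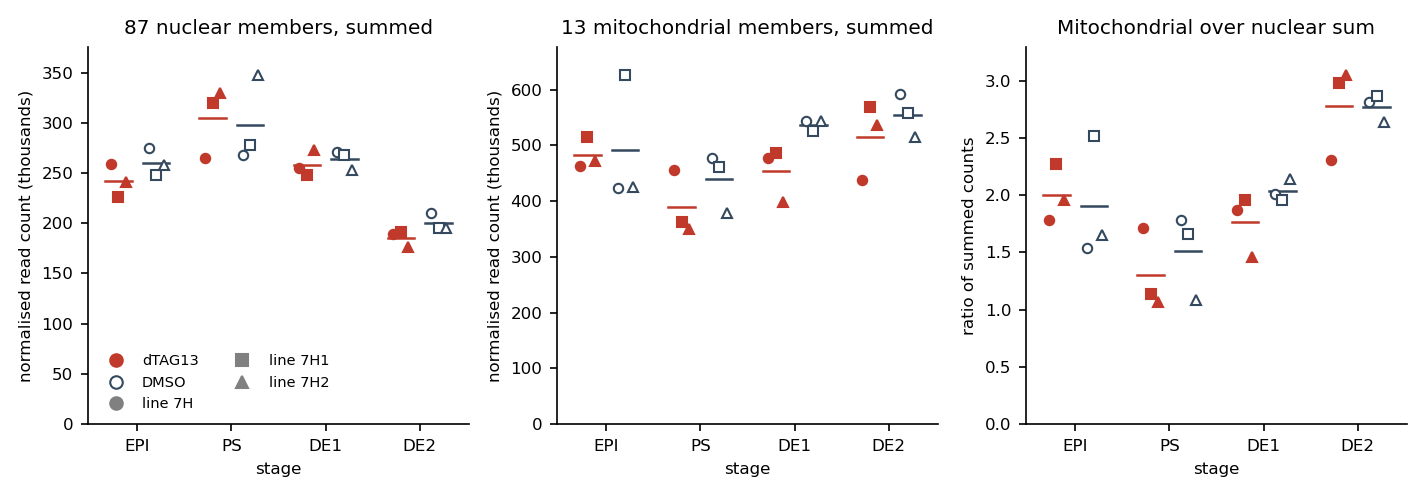
Normalised read counts summed over the 87 nuclear members (left) and the 13 mitochondrial members (middle), the axes in units of 1000, and the ratio of the mitochondrial to the nuclear sum (right), by stage; each point is a library, filled for dTAG13 and open for DMSO, shaped by cell line, and bars are means of 3 libraries. In DE2 the nuclear sums are the lowest of the 4 stages, and the ratios, 2.31 to 3.05, lie above those of every other library but 1 (7H1 in EPI with DMSO, at 2.52).

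Between EPI and PS, part of the nuclear genes rose and a few mitochondrial genes fell, most clearly mt-Co1. With dTAG13, 33 members rose and 5 fell, beside 16.9% and 16.1% of all genes tested. With DMSO, 15 rose and 4 fell, beside 14.6% and 12.8%, so the share that rose with DMSO was close to that of all genes. The median log2 fold change of the nuclear members was 0.28 with dTAG13 and 0.13 with DMSO, and that of the mitochondrial members -0.20 and -0.03, beside -0.01 in each arm for all genes tested. The arms share no library: 13 nuclear members rose in both, which is 39.4% of those that rose with dTAG13 and 86.7% of those that rose with DMSO. The sign was the same in both arms for 85.1% of nuclear members, beside 82.2% of all genes tested. No share of all genes called in both arms was computed for any step, so such overlaps are not read as particular to the members. The rise was uneven across lines. In 7H the nuclear median was -0.06 with dTAG13 and -0.12 with DMSO, while in 7H1 it was 0.46 and 0.15, and in 7H2 0.41 and 0.35. The mitochondrial median likewise was 0.15 and 0.31 in 7H, but -0.49 and -0.44 in 7H1 and -0.28 and -0.04 in 7H2. Without 7H2, 5 members rose with dTAG13 and 2 with DMSO, and without 7H1 there were 7 and 9, while without 7H there were 44 and 14. Falls numbered 3 with dTAG13 without 7H or without 7H1 and 1 without 7H2, and with DMSO 3, 2 and 1. No share of all genes was computed for any fit without a line, at this step or later ones. Such counts are therefore not read as particular to the members.

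Of the ATP synthase, 9 of 16 nuclear members rose with dTAG13 and 5 with DMSO (Atp5c1, Atp5f1, Atp5g1, Atp5g3 and Atp5h, which rose in both arms), beside 16.9% and 14.6% of all genes tested. Atp5g3, 1 of 3 genes for the same c subunit of the membrane rotor, had 9059.7, 10781 and 11437 in PS, against 6077, 6438 and 6112 in EPI, with dTAG13, and 9465, 9282 and 11582 in PS, against 6518, 7217 and 6197 in EPI, with DMSO. Every PS library lay above every EPI library. The log2 fold change was 0.74 ± 0.10 (SE) with dTAG13 (adjusted p = 2.29e-05) and 0.60 ± 0.10 (SE) with DMSO (adjusted p = 0.000209). Atp5g1, which encodes the same mature c subunit, rose by 0.58 with dTAG13 and 0.49 with DMSO on the log2 scale. The third gene, Atp5g2, ranged widely between lines (1128 to 1919 in PS, against 603 to 1398 in EPI, with dTAG13) and was not called.

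In complex I, 11 of 44 nuclear members rose with dTAG13 and 6 with DMSO, beside 16.9% and 14.6% of all genes tested. The count with DMSO is near that share and is not read as a result about complex I. Ndufaf4, an assembly factor that acts early, on the quinone-binding module, had 3129, 2874 and 2119.7 in PS, against 1363, 1642 and 1471 in EPI, with dTAG13, and 2499, 2743 and 2313 in PS, against 1419, 1734 and 1579 in EPI, with DMSO. It rose by 0.84 ± 0.16 (SE) and 0.68 ± 0.16 (SE) on the log2 scale, and the stages did not overlap. Ndufb10, an accessory subunit of the membrane arm, rose by 0.50 with dTAG13 and 0.50 with DMSO. Ndufaf7, a methyltransferase that modifies a core subunit of complex I, went the other way. It had 316, 372 and 357 in PS, against 667, 447 and 579.9 in EPI, with dTAG13, a log2 fold change of -0.68 ± 0.18 (SE), and -0.81 with DMSO. Ndufv3, a small accessory subunit of the NADH-binding part, had -0.28 with dTAG13 (adjusted p = 0.224) and fell with DMSO (-0.70, adjusted p = 0.00515). Sdhd, a membrane anchor of complex II, rose in both arms (0.54 and 0.52), and so did Uqcrh, the hinge protein of complex III (0.44 and 0.53) and Cox7a2, a small subunit of complex IV (0.49 and 0.34).

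Among the mitochondrial genes, mt-Co1 fell in both arms. It had 128434, 104408 and 103338 in PS, against 174809, 156868 and 172225 in EPI, with dTAG13, and 130161, 130425 and 106818 in PS, against 158418, 176999 and 151129 in EPI, with DMSO. The log2 fold change was -0.59 ± 0.12 (SE) with dTAG13 and -0.41 ± 0.12 (SE) with DMSO (adjusted p of 0.000777 and 0.0133), and no PS library reached the EPI range. mt-Nd5 and mt-Co3, core subunits of complexes I and IV, fell with dTAG13 (-0.55 and -0.40) and had -0.37 and -0.11 with DMSO, not called (adjusted p of 0.178 and 0.592). The other 10 mitochondrial members were called in neither arm, with values of -0.45 (mt-Nd6, dTAG13) to 0.57 (mt-Nd3, DMSO).

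**Figure D2:**
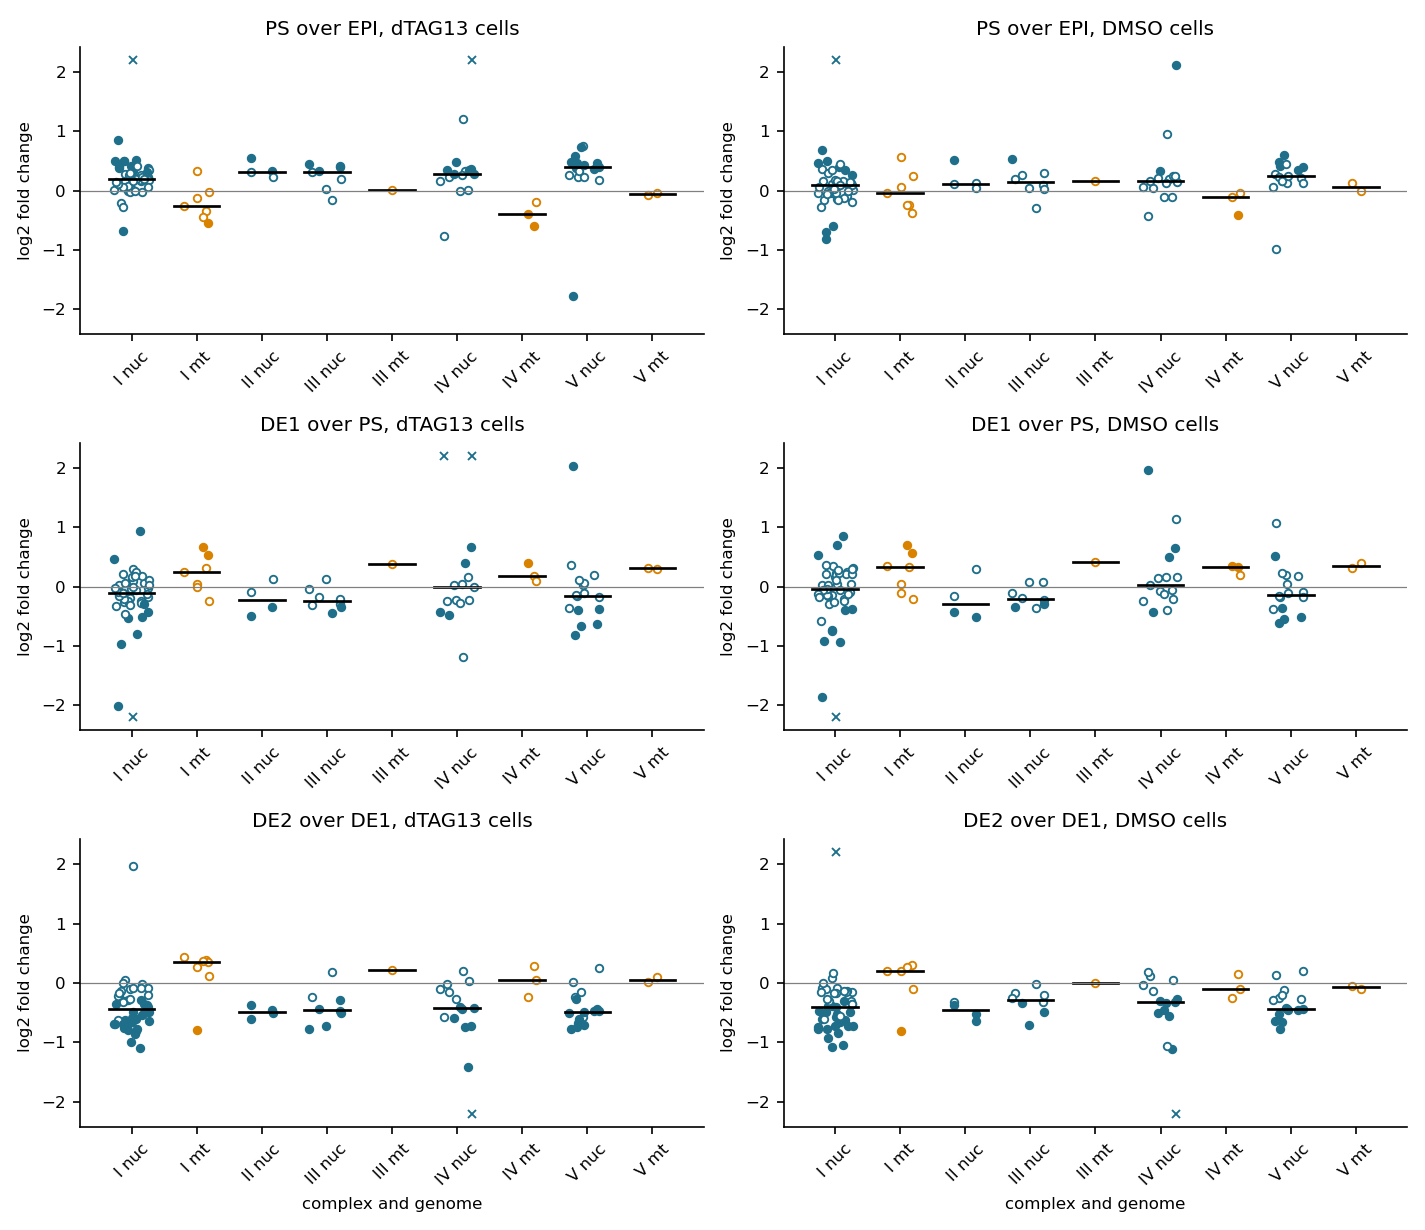
Log2 fold change of each member between successive stages (rows) in dTAG13 cells (left) and DMSO cells (right), by complex and by nuclear (nuc) or mitochondrial (mt) genome; filled points passed an adjusted p of 0.05, bars are medians and crosses mark values beyond the axis of 2.2. The nuclear groups lie mostly above 0 from EPI to PS and mostly below 0 from DE1 to DE2, where the mitochondrial groups do not follow. The crosses include called changes of Ndufa4l2, and of Cox7a1 from PS to DE1 with dTAG13.

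From PS to DE1 the members split. With dTAG13, 10 rose and 18 fell, beside 22.7% and 21.7% of all genes tested, and with DMSO 11 rose and 16 fell, beside 21.7% and 22.4%, so these shares were below those of the table as a whole. The nuclear median was -0.12 with dTAG13 and -0.08 with DMSO, the mitochondrial median 0.30 and 0.34. Nuclear members that fell in both arms numbered 14, which is 77.8% of the 18 with dTAG13 and 87.5% of the 16 with DMSO, and 5 of the 7 that rose in each arm rose in both. The sign was the same in both arms for 89.7% of nuclear members, beside 81.7% of all genes tested. Lines differed here too: the nuclear median was 0.11, -0.29 and -0.21 in 7H, 7H1 and 7H2 with dTAG13, and 0.14, 0.08 and -0.38 with DMSO. Without 7H1 the rises numbered 5 in each arm, and without 7H2 5 with dTAG13 and 14 with DMSO. Falls numbered 10 with dTAG13 without 7H1, 11 without 7H2 and 23 without 7H, and 11, 7 and 17 with DMSO.

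Ndufaf4 had the largest fall among the members called. It had 680.0, 629 and 673 in DE1, against 3129, 2874 and 2119.7 in PS, with dTAG13, and 699, 682 and 697 in DE1, against 2499, 2743 and 2313 in PS, with DMSO. The log2 fold change was -2.01 ± 0.16 (SE) with dTAG13 and -1.86 ± 0.16 (SE) with DMSO (adjusted p of 2.35e-09 and 7.19e-09), and its 12 DE1 and DE2 libraries all lay below its 6 EPI libraries. Among the other genes that fell in both arms were Ndufaf6, a further assembly factor (-0.96 and -0.91), Ndufs8, an iron-sulfur subunit of complex I (-0.80 and -0.94) and Ndufs1, its largest core subunit (-0.51 and -0.40). The c subunit genes Atp5g1 (-0.80 and -0.60) and Atp5g3 (-0.66 and -0.55), which had risen at PS, fell, and Atp5a1 and Atp5b of the catalytic head fell too (-0.38 and -0.63 with dTAG13, -0.36 and -0.51 with DMSO). Sdha, the flavoprotein of complex II, and Sdhd fell in both arms as well (-0.34 and -0.49 with dTAG13, -0.52 and -0.42 with DMSO). In each arm, 6 members both rose from EPI to PS and fell from PS to DE1, and Atp5g1, Atp5g3, Ndufaf4 and Sdhd were among the 6 in both. The 2 steps share their PS libraries, and no share of all genes with this pattern was computed.

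Rises from PS to DE1 included several complex IV genes. Cox7a1, an isoform best known from heart and skeletal muscle, had 71.6, 123 and 119 in DE1, against 13.4, 22.3 and 29.6 in PS, with dTAG13, and 96.4, 149 and 104 in DE1, against 24.9, 23.4 and 39.3 in PS, with DMSO. Its log2 fold change was 2.24 ± 0.37 (SE) and 1.97 ± 0.37 (SE) (adjusted p of 4.19e-05 and 0.00018), at levels that stayed among the lowest of the members per kb. Among cardiac and skeletal muscle markers, of which 5 of 6 were analysed, the summed level was 142 to 315 in DE1 with dTAG13 and 236 to 553 in DE1 with DMSO, against 17.5 to 53.4 in PS with dTAG13 and 38.8 to 54.1 in PS with DMSO, and Myh6 was at 0 in all 3 libraries of each of these groups. Whether cells of that kind had a part in the Cox7a1 values was not tested. Cox4i1, the common isoform of the regulatory subunit 4, rose by 0.40 and 0.51, and Cox7a2l by 0.67 and 0.66. In complex I, Ndufb4, an accessory subunit of the membrane arm, had 1121, 1126 and 993 in DE1, against 478, 577 and 647 in PS, with dTAG13, and 1018, 1164 and 759.9 in DE1, against 467, 558 and 587 in PS, with DMSO. That was a log2 fold change of 0.94 ± 0.19 (SE) and 0.85 ± 0.19 (SE), with no overlap between the stages. Of the mitochondrial genes, mt-Nd5 (0.54 and 0.56), mt-Nd6, encoded on the other strand (0.67 and 0.71), and mt-Co3 (0.40 and 0.35) rose in both arms. mt-Co1 rose with DMSO (0.34, adjusted p = 0.0232) and had 0.18 with dTAG13 (adjusted p = 0.224).

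The second day of endoderm, DE2 against DE1, brought a broad fall of the nuclear genes. With dTAG13, 56 of the 100 members fell and 0 rose, beside 19.1% and 19.6% of all genes tested, and with DMSO 47 fell and 0 rose, beside 19.1% and 20.2%. Of the 87 nuclear members, 55 fell with dTAG13 and 46 with DMSO, and of the 13 mitochondrial members 1 fell in each arm, mt-Nd3. At an unadjusted p under 0.05, 62 of the 100 members passed with dTAG13, beside 46.8% of all genes tested, and 54 with DMSO, beside 47.3%. The median log2 fold change of the nuclear members was -0.47 with dTAG13 and -0.37 with DMSO, that of the mitochondrial members 0.22 and 0.00, and that of all genes tested 0.00 and 0.02. Unlike at the earlier steps, the nuclear median was below 0 in every line, at -0.46, -0.35 and -0.61 in 7H, 7H1 and 7H2 with dTAG13 and -0.33, -0.47 and -0.35 with DMSO. Leaving out a line left 46, 45 and 35 falls with dTAG13 (without 7H, 7H1 and 7H2) and 38, 24 and 37 with DMSO.

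The arms, which share no library, largely had the same genes: 42 nuclear members fell in both, which is 76.4% of the 55 with dTAG13 and 91.3% of the 46 with DMSO. No such overlap was computed for all genes tested. Of the 87 nuclear members 90.8% had the same sign in both arms, beside 75.0% of all genes tested. By complex, the falls in both arms covered 20 of 36 nuclear subunits of complex I, 1 of its 8 assembly factors, 3 of 4 members of complex II, 3 of 8 nuclear members of complex III, 8 of 15 of complex IV and 7 of 16 of complex V. The medians with dTAG13 and DMSO were -0.52 and -0.40 for the complex I subunits, -0.48 and -0.45 for complex II, -0.46 and -0.28 for complex III, -0.43 and -0.32 for complex IV, and -0.48 and -0.43 for complex V, so each complex lay below 0. Complex I assembly factors had -0.12 and -0.37.

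In complex I, Ndufv2 of the NADH-binding module had 1908, 2006 and 1721 in DE2, against 3229.7, 3488 and 3537 in DE1, with dTAG13, and 2103, 2015 and 1949 in DE2, against 3840.1, 4061 and 3085 in DE1, with DMSO. Its log2 fold change was -0.87 ± 0.11 (SE) and -0.85 ± 0.11 (SE) (adjusted p of 5.27e-06 and 7.78e-06), with every DE2 library below every DE1 library. Ndufb10 had log2 fold changes of -0.75 with dTAG13 and -0.78 with DMSO. Ndufb4, which had risen at DE1, had 473, 566 and 479.8 with dTAG13 and 451, 430.5 and 518 with DMSO in DE2, values within the range of EPI (432 to 637 and 386 to 612), after log2 fold changes of -1.09 and -1.05. In each arm several members were called higher in DE1 than in PS and lower in DE2 than in DE1. These were 5 with dTAG13 and 6 with DMSO, and Cox4i1, Cox7a2l, Ndufa7 and Ndufb4 were in both sets. These 2 steps share their DE1 libraries, and no share of all genes with this pattern was computed.

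Uqcrc2, a core protein of complex III, had 3258, 3659.8 and 3696 in DE2, against 5493, 5743 and 6376 in DE1, with dTAG13, and 3685, 3568 and 3694 in DE2, against 5899.8, 6596 and 5470.2 in DE1, with DMSO. The log2 fold change was -0.73 ± 0.12 (SE) and -0.71 ± 0.12 (SE), again with no overlap. Atp5a1 had 17328, 17778 and 16163 in DE2, against 27805, 26619 and 27701 in DE1, with dTAG13, and 17980.0, 17589.6 and 16396 in DE2, against 28639, 28297 and 25336 in DE1, with DMSO (log2 fold change -0.68 and -0.66), and here too the stages stood apart. Its partner Atp5b fell with dTAG13 (-0.45, adjusted p = 0.0134) and had -0.27 with DMSO, not called (adjusted p = 0.125). In complex II, Sdha had log2 fold changes of -0.46 and -0.64, and Sdhd -0.60 and -0.37, called in both arms.

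Some nuclear genes were not called. The c subunit gene Atp5g3 had 5879.8, 6356 and 5500.3 in DE2, against 6978, 6103 and 6588 in DE1, with dTAG13, a log2 fold change of -0.15 ± 0.10 (SE) (adjusted p = 0.267), and -0.11 with DMSO (adjusted p = 0.413). Cox6a1, the common isoform of subunit 6a, had -0.01 and 0.12, and Cox8a, the common isoform of subunit 8, -0.10 and -0.03, and neither was called. Cox6b2, an isoform of subunit 6b best known from testis, fell in both arms. It had 136, 181 and 254 in DE2, against 556, 438 and 484 in DE1, with dTAG13, and 218, 159.7 and 229 in DE2, against 492, 421 and 394 in DE1, with DMSO. Its log2 fold change was -1.41 ± 0.21 (SE) and -1.11 ± 0.21 (SE), while the common isoform Cox6b1 had -0.43 ± 0.12 (SE) and -0.33 ± 0.12 (SE), and the difference between the isoforms was not tested. Members called in no step numbered 20 with dTAG13, 12 of them nuclear, and 37 with DMSO, 29 of them nuclear. The share of all genes called in no step was not computed.

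**Figure D3:**
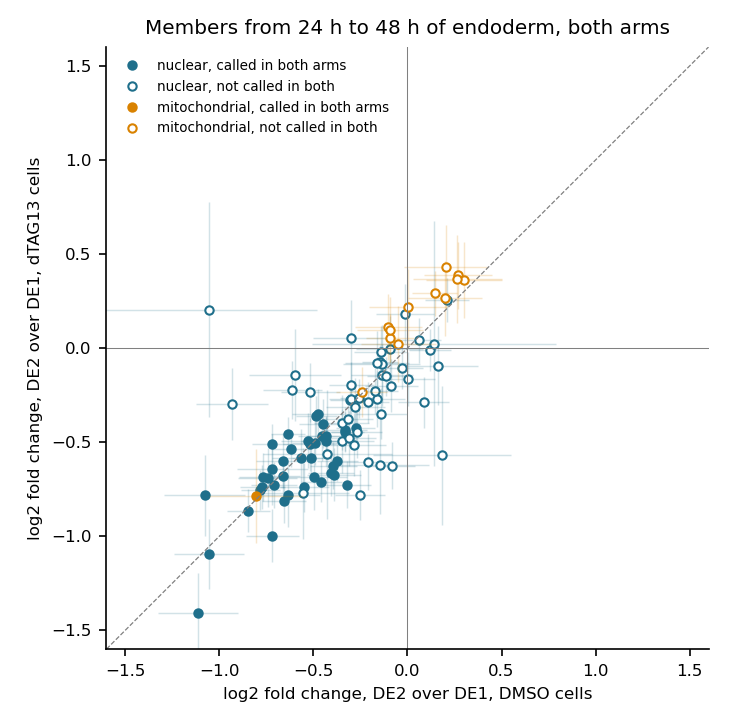
Log2 fold change of each member from DE1 to DE2 in DMSO cells (horizontal) and dTAG13 cells (vertical), with bars of 1 SE; filled points were called in both arms, the dashed line marks equal change, and Ndufa9 and Ndufa4l2 lie outside the axes. Of the 42 nuclear members called in both arms, those within the axes sit in the lower left. Of the 13 mitochondrial members, 12 sit between -0.24 and 0.43 in both arms, mt-Nd3 lying below.

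Of the mitochondrial genes, 12 of 13 were not called at this step. mt-Co1 had 125398, 174802 and 168251 in DE2, against 133227, 134852 and 112270.4 in DE1, with dTAG13, and 172709, 175960.2 and 162874 in DE2, against 154786, 150377 and 157649.7 in DE1, with DMSO. Its log2 fold change was 0.29 ± 0.12 (SE) with dTAG13 (95% interval 0.05 to 0.53) and 0.14 ± 0.12 (SE) with DMSO (95% interval -0.10 to 0.39), neither called. mt-Nd3 was the exception, with 1959.6, 2310.3 and 1960.3 in DE2, against 3552, 4015 and 3191 in DE1, with dTAG13, and 2480.5, 1755 and 2022 in DE2, against 3813, 3661 and 3373 in DE1, with DMSO. It encodes a small core subunit of complex I and had log2 fold changes of -0.79 ± 0.25 (SE) and -0.81 ± 0.25 (SE) (adjusted p of 0.0175 and 0.0146). The neighbours of mt-Nd3 on mitochondrial DNA went differently: mt-Co3, which ends at position 9390, before mt-Nd3 begins at 9459 (GRCm38), had -0.23 and -0.24, and mt-Nd4l, which begins at 9877, had 0.43 and 0.20, none of them called. Within complex I alone, the ratio of the mitochondrial to the nuclear sum was 2.96, 3.37 and 3.54 in DE2 with dTAG13 and 3.49, 3.45 and 3.23 in DE2 with DMSO, against 2.03, 2.18 and 1.59 in DE1 with dTAG13 and 2.21, 2.01 and 2.36 in DE1 with DMSO.

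Markers of other cell types moved with this step. The summed level of 6 fibroblast markers was 7981 to 16351 in DE2 with dTAG13 and 10928 to 13234 in DE2 with DMSO, against 5341 to 6784 in DE1 with dTAG13 and 2899 to 5177 in DE1 with DMSO, and none of the 6 was at 0 in all 3 libraries of a group. The 5 primitive streak markers summed to 5519.6 to 10383 with dTAG13 and 5687 to 7337 with DMSO in DE2, against 33116 to 34539 with dTAG13 and 23511 to 24109.5 with DMSO in DE1. The 5 blood markers were lower too, at 121 to 381 in DE2 with dTAG13 and 170 to 297 in DE2 with DMSO, against 1321 to 1469 in DE1 with dTAG13 and 672 to 805 in DE1 with DMSO, where Tal1 was at 0 in all 6 DE1 libraries. For these 3 lists the DE2 and DE1 ranges stood apart in both arms. The 6 definitive endoderm markers were lower in DE2 as well, at 14205 to 19979 with dTAG13 and 24111 to 39945 with DMSO, against 24548 to 28855 with dTAG13 and 40459 to 45173 with DMSO in DE1. The 5 extraembryonic or hepatic markers were higher, at 109 to 232 in DE2 with dTAG13 and 85.1 to 175 in DE2 with DMSO, against 80.7 to 95.05 in DE1 with dTAG13 and 36.0 to 67.0 in DE1 with DMSO, with Ttr at 0 in all 3 libraries of each group in DE2 with dTAG13 and in DE1 with DMSO, and Afp at 0 in DE1 with dTAG13. The other 3 lists stood apart with DMSO and overlapped with dTAG13. With DMSO, the 6 neural markers summed to 414 to 1208 in DE2, against 128 to 176 in DE1, and the muscle markers to 749.8 to 939 in DE2, against 236 to 553 in DE1, with Myh6 at 0 at both stages. With DMSO the 6 epiblast markers summed to 39612 to 47153 in DE2, against 52661 to 55132 in DE1. Their part in the members' falls was not tested.

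Genes of the pathway outside the families gave a mixed picture at this step, from lists chosen with earlier results of these data known. Of all genes tested, 19.1% fell and 19.6% rose with dTAG13, and 19.1% fell and 20.2% rose with DMSO. Of 77 mitochondrial ribosome proteins, which translate the mitochondrial messages, 26 fell and 2 rose with dTAG13 and 46 fell and 0 rose with DMSO, with medians of -0.28 and -0.43. Of 21 genes of the TCA cycle and pyruvate dehydrogenase, which supply the chain with NADH and succinate, 12 fell and 1 rose with dTAG13, and 12 fell and 0 rose with DMSO. Idh3g, a subunit of isocitrate dehydrogenase, averaged 1571 in DE2, against 3086 in DE1, with dTAG13, and 1675 in DE2, against 3310.5 in DE1, with DMSO (log2 fold change -0.98 in each arm). Of 38 assembly factors outside the rule, 7 fell and 1 rose with dTAG13, and 15 fell and 1 rose with DMSO. Among these, Bcs1l, which inserts the iron-sulfur protein into complex III, had log2 fold changes of -1.14 and -1.28. Of 28 genes for maintenance and expression of mitochondrial DNA, 6 fell and 3 rose with dTAG13 and 15 fell and 2 rose with DMSO, and Hsd17b10, a part of mitochondrial RNase P, had log2 fold changes of -1.75 and -1.62. Of 17 genes for electron carriers and coenzyme Q, 6 fell and 3 rose with dTAG13, and 4 fell and 1 rose with DMSO. Coq10b, a coenzyme Q binding protein, rose by 1.40 with dTAG13 and 0.96 with DMSO. Of 9 regulators of mitochondrial biogenesis tested, 0 were called as falling, and 4 rose with dTAG13 and 1 with DMSO. These were led by Pprc1, a coactivator (log2 fold change 0.97), and Gabpb1, a subunit of the ETS factor GABP (0.67), with dTAG13, and by the coactivator Ppargc1b with DMSO (2.54).

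The same lists were followed at the earlier steps. From EPI to PS, 24 of 77 mitochondrial ribosome proteins rose and 1 fell with dTAG13, beside 16.9% and 16.1% of all genes tested, and 17 rose and 1 fell with DMSO, beside 14.6% and 12.8%. The 21 genes of the TCA list had 6 rises and 0 falls with dTAG13 and 4 rises and 1 fall with DMSO. From PS to DE1, 25 ribosome proteins fell and 2 rose with dTAG13, beside 21.7% and 22.7% of all genes tested, and 22 fell and 4 rose with DMSO, beside 22.4% and 21.7%. The falls with DMSO were 28.6% of the list, not far from the share of all genes. The ribosome proteins were led by Mrps18b (-1.31 and -1.07). Cycs, the cytochrome c that carries electrons from complex III to complex IV, averaged 2188 in DE1, against 4649 in PS, with DMSO, a log2 fold change of -1.08. In the TCA cycle, Ogdh fell (-0.86 and -0.79) while Idh2 rose (1.22 and 1.09).

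The promoters of the nuclear members were read as a further description. RefSeq promoters (GRCm38.p6, 250 bases before to 50 after the start, 300 in all) were found for 74 of the 87 nuclear members, 2 of them by an older name, as 79 promoters. Short motifs of factors known for these genes were searched on both strands. The full NRF1 palindrome, GCGCA directly followed by TGCGC, was in 8.86% of members' promoters, beside 1.84% of the promoters of genes tested and 0.971% of all promoters. The NRF1 core TGCGCA, which can overlap the palindrome, was in 25.3%, 12.5% and 7.76%, the ETS core CCGGAA in 35.4%, 24.4% and 14.9%, and the YY1 core AAGATGG in 15.2%, 6.53% and 6.34%. In the promoters of members that fell from DE1 to DE2 in both arms, against those of the other nuclear members, the shares were 5.88% against 11.1% for the palindrome, 23.5% against 26.7% for the NRF1 core, 32.4% against 37.8% for ETS and 14.7% against 15.6% for YY1, over 34 and 45 promoters. These shares are descriptions with no test, and a match is not a binding site.

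The 5 promoters printed here are those of members that fell from DE1 to DE2 in both arms and carry either the palindrome or 2 kinds of shorter motif, with the matches in capitals. Uqcrc1 (a core protein of complex III) is at chr9:108936398-108936697 on the plus strand and Ndufaf5 (an assembly factor of complex I) at chr2:140170396-140170695 on the plus strand. Atp5f1 (subunit b of the synthase, which RefSeq calls Atp5pb) is at chr3:105959214-105959513 on the minus strand, Sdhd at chr9:50603800-50604099 on the minus strand, and Ndufs7 (a core subunit of complex I) at chr10:80249199-80249498 on the plus strand. Uqcrc1 and Ndufaf5 hold the palindrome, 30 and 16 bases after the start, Sdhd 2 NRF1 cores and 2 ETS cores, Atp5f1 an NRF1 and a YY1 core, and Ndufs7 an ETS and a YY1 core.
Uqcrc1: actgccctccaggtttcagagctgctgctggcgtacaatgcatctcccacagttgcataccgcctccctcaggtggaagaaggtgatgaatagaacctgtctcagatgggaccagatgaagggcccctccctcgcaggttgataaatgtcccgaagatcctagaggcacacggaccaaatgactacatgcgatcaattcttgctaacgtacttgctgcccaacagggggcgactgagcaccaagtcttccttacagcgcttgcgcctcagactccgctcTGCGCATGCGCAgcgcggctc
Ndufaf5: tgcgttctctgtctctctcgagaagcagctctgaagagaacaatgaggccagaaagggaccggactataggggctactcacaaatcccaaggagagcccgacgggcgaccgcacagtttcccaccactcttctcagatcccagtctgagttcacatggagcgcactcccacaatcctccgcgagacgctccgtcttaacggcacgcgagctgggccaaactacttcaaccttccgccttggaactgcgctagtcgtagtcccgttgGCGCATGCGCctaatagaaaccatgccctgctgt
Atp5f1: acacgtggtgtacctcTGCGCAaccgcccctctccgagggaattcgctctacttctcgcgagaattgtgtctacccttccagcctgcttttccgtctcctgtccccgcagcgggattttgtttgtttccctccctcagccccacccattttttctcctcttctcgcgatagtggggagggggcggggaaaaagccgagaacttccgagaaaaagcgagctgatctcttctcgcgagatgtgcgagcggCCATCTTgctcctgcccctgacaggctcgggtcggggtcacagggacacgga
Sdhd: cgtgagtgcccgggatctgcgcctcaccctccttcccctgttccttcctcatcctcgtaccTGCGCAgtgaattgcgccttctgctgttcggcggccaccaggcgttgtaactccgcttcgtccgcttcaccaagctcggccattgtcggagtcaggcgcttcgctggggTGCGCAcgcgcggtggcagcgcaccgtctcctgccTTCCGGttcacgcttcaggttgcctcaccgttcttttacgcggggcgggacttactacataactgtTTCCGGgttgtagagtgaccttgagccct
Ndufs7: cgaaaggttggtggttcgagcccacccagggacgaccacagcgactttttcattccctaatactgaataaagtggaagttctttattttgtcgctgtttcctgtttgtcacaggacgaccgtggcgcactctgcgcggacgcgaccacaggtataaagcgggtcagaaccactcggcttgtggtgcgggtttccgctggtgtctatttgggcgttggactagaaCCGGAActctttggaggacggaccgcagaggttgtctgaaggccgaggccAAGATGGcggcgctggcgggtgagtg
From DE1 to DE2 their genes had log2 fold changes of -0.50 and -0.49 (Uqcrc1, dTAG13 and DMSO), -0.78 and -1.08 (Ndufaf5), -0.47 and -0.44 (Atp5f1), -0.60 and -0.37 (Sdhd) and -0.35 and -0.48 (Ndufs7). The palindrome was also found in Ndufaf4, Atp5g2, Atp5k, Cox6a1 and Ndufa11, which did not fall in both arms.

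Fewer members were called with dTAG13 than between stages. No member was called in EPI, PS or DE1, where 0.0865%, 0.219% and 7.76% of all genes tested were called, and at an unadjusted p under 0.05, 0, 0 and 4 of the 100 members passed, beside 3.55%, 7.96% and 19.8% of all genes tested. In DE2, 2 rose and 1 fell, where 17% of all genes tested were called (8.65% as rising, 8.31% as falling), and 15 members passed an unadjusted p of 0.05, beside 28.8% of all genes tested. These shares of members were below those of the table as a whole. The median log2 fold change of the nuclear members was -0.08, 0.05, -0.03 and -0.09 in EPI, PS, DE1 and DE2, and that of the mitochondrial members 0.01, -0.18, -0.24 and -0.12. In EPI 73 of the 87 nuclear members lay below 0, beside 52.7% of all genes tested, and 8 were lower in every dTAG13 library than in every DMSO library, as were 4.54% of all genes tested. Markers moved with dTAG13 as well: in DE1 the 6 definitive endoderm markers summed to 24548 to 28855 with dTAG13, against 40459 to 45173 with DMSO, and the 6 epiblast markers to 29962 to 30854 with dTAG13, against 52661 to 55132 with DMSO. Higher with dTAG13 in DE1 were the 5 primitive streak markers at 33116 to 34539, against 23511 to 24109.5 with DMSO, and the 6 fibroblast markers at 5341 to 6784, against 2899 to 5177 with DMSO. The 6 neural markers summed to 630.3 to 893 with dTAG13, against 128 to 176 with DMSO, and the 5 blood markers to 1321 to 1469 with dTAG13, against 672 to 805 with DMSO. The extraembryonic or hepatic markers had 80.7 to 95.05 with dTAG13, against 36.0 to 67.0 with DMSO, and the muscle markers overlapped, so 7 of 8 lists stood apart between the DE1 arms. Tal1 was at 0 in both arms, and Hba-a1 with dTAG13. In DE2, 3 of 8 lists stood apart, all lower with dTAG13: the endoderm markers at 14205 to 19979 with dTAG13, against 24111 to 39945 with DMSO, the epiblast markers at 23582 to 30152 with dTAG13, against 39612 to 47153 with DMSO, and the muscle markers. Their part in the members' values was not tested. The difference of the effect between successive stages was called for 0 members, beside 0.0133%, 2.14% and 5.95% of all genes tested.

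In DE2, Sdha rose. It had 5039.8, 5518 and 5121 in DE2 with dTAG13, against 3997, 3943 and 4119.6 in DE2 with DMSO, a log2 fold change of 0.38 ± 0.09 (SE) (adjusted p = 0.00591), and the groups did not overlap. Its values in DE1 were 6975, 7299.9 and 7231 with dTAG13, against 5894, 5978 and 6925 with DMSO (adjusted p = 0.227). The other subunits of complex II were not called in DE2, with log2 fold changes of 0.06 (Sdhb, the iron-sulfur protein), -0.04 (Sdhc) and -0.25 (Sdhd). Uqcrh fell, with 1539, 2103 and 1974 in DE2 with dTAG13, against 2614, 2512 and 2541 in DE2 with DMSO, a log2 fold change of -0.46 ± 0.13 (SE) (adjusted p = 0.0201), and again the groups did not overlap. Ndufaf5, which modifies a core subunit during assembly of complex I, had 137, 176 and 158 in DE2 with dTAG13, against 83.9, 125 and 98.0 in DE2 with DMSO, a log2 fold change of 0.63 ± 0.21 (SE) (adjusted p = 0.0485). Sdha was the one of the 3 still called without 7H or without 7H2, and without 7H1 none was.

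With the cell line as a block, which takes out differences between lines, 17 members were called in DE2, beside 27.5% of all genes tested. The 5 that rose were Sdha and 4 complex I assembly factors, Ndufaf2, Ndufaf4, Ndufaf5 and Ndufaf6. The 12 that fell were Ndufaf3, Ndufb5, Ndufb11 and Ndufv3 of complex I, Uqcrh and Uqcr11 of complex III, Cox6a1, Cox6c, Cox7a1 and Cox7a2l of complex IV, and Atp5b and Atp5l of complex V. Ndufaf2, a factor that binds a late assembly intermediate, had 369, 329 and 279 in DE2 with dTAG13, against 301, 179 and 210.0 in DE2 with DMSO, a log2 fold change of 0.53 ± 0.19 (SE) (adjusted p = 0.0615, blocked 0.0203). Atp5l, subunit g of the synthase, had 1463, 1581 and 1380.2 in DE2 with dTAG13, against 2118, 1934 and 1874 in DE2 with DMSO, a log2 fold change of -0.42 ± 0.15 (SE) (adjusted p = 0.0541, blocked 0.00276). Cox7a1 had 68.3, 79.5 and 58.1 in DE2 with dTAG13, against 135, 155 and 104 in DE2 with DMSO, with a log2 fold change of -0.92 ± 0.37 (SE) (95% interval -1.69 to -0.16, adjusted p = 0.0925, blocked 0.0177). No dTAG13 library of DE2 reached the DMSO range of Cox7a1. In the same libraries the muscle markers summed to 229 to 523 with dTAG13 and 749.8 to 939 with DMSO, and their part in this was not tested. The blocked difference of the effect between DE2 and DE1 was called for Ndufb5, Uqcrh and Atp5l (-0.54, -0.53 and -0.40), beside 15% of all genes tested.

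In DE1, Ndufa4l2, a hypoxia-inducible paralogue of Ndufa4, had the largest dTAG13 effect of the members in size, Ndufa9 left aside. It had 565, 647 and 645 in DE1 with dTAG13, against 169, 175 and 148 in DE1 with DMSO, so that every dTAG13 library was above every DMSO library. The log2 fold change of 1.91 ± 0.61 (SE) (95% interval 0.64 to 3.19) was not called (adjusted p = 0.0611), but was with the line as a block (adjusted p = 0.0112), where 15.8% of all genes tested were. At the other stages its levels were lower. It had 6.91, 8.11 and 4.37 in EPI with dTAG13, against 13.3, 13.3 and 24.2 in EPI with DMSO. In PS the values were 30.3, 85.6 and 113 with dTAG13, against 73.6, 86.6 and 63.2 with DMSO. In DE2 they were 11.9, 33.5 and 18.7 with dTAG13, against 5.01, 70.4 and 17.4 with DMSO. In EPI every dTAG13 library was below every DMSO library, while in PS and DE2 the arms overlapped. Its mean was highest in DE1 in both arms, with log2 fold changes of 3.22 and 2.12 from EPI to PS (both called), 3.19 (called) and 1.14 (adjusted p = 0.142) from PS to DE1, and -4.91 and -3.05 (both called) from DE1 to DE2. With the block, Atp5d, the delta subunit of the synthase, also fell in DE1 (-0.24 ± 0.12 (SE), blocked adjusted p = 0.0305).

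The mitochondrial genes lay lower with dTAG13 in DE1, but none was called. Of the 13, 9 were lower in every dTAG13 library than in every DMSO library, as were 16.7% of all genes tested, and all 13 had a log2 fold change below 0, as did 49.9% of all genes tested, -0.30 (mt-Nd6) to -0.02 (mt-Nd3). The genes share precursors and libraries, so they are not 13 separate observations. mt-Co1 had 133227, 134852 and 112270.4 in DE1 with dTAG13, against 154786, 150377 and 157649.7 in DE1 with DMSO, a log2 fold change of -0.29 ± 0.12 (SE) (adjusted p = 0.159, blocked 0.0758). mt-Atp6, a channel subunit of the synthase, had 59402, 58551 and 47284 in DE1 with dTAG13, against 69099, 66234 and 65537 in DE1 with DMSO, a log2 fold change of -0.29 ± 0.18 (SE) (adjusted p = 0.403). The mitochondrial sum with dTAG13 in DE1 was 0.876, 0.925 and 0.735 times that with DMSO in 7H, 7H1 and 7H2, and in DE2 0.740, 1.02 and 1.04 times, so the lower level was not seen in 7H1 and 7H2 there. Fitted on the DE1 libraries alone, mt-Co1 and mt-Nd5 were called as falling (adjusted p of 0.0376 and 0.0321), as was Atp5d (0.0366), and Ndufa4l2 as rising (4.64e-05).

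**Figure D4:**
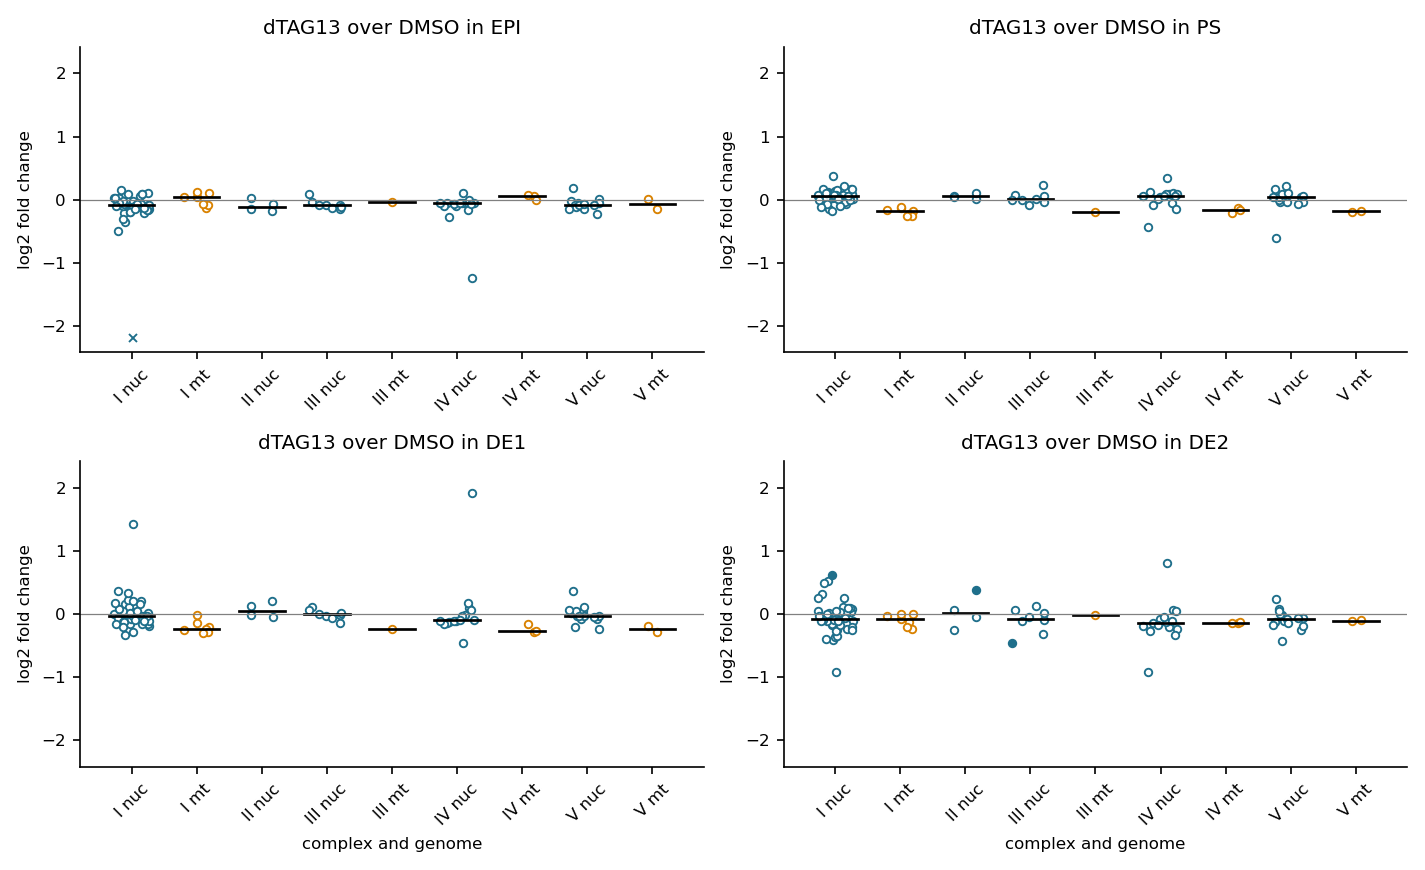
Log2 fold change of each member with dTAG13 over DMSO at the 4 stages, by complex and by nuclear (nuc) or mitochondrial (mt) genome; filled points passed an adjusted p of 0.05, bars are medians and the cross marks Ndufa9, beyond the axis of 2.2. The filled points are Ndufaf5, Sdha and Uqcrh in DE2.

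**Figure D5:**
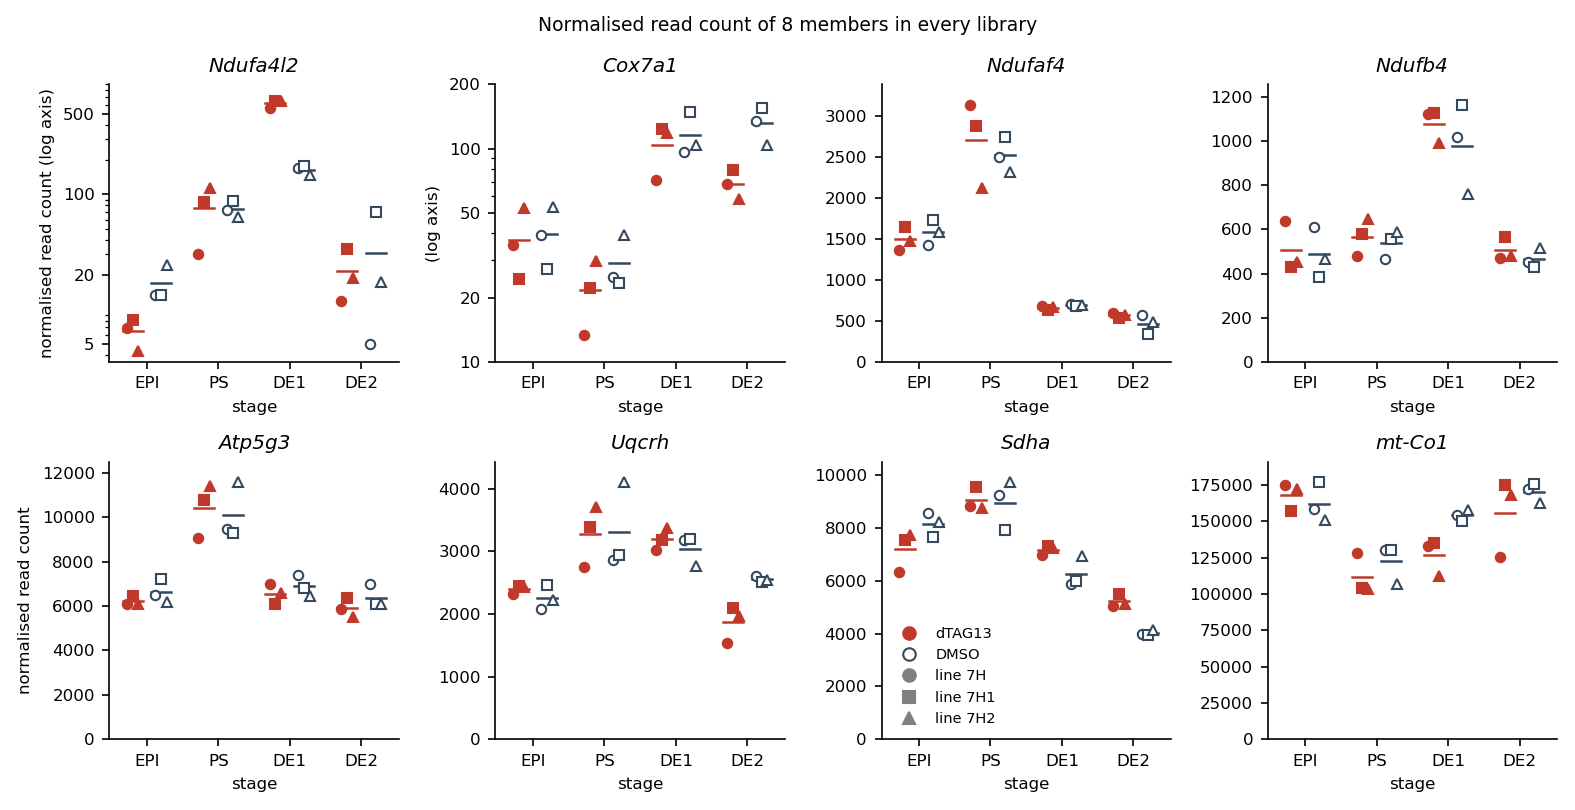
Normalised read count of 8 members in each of the 24 libraries by stage, on a log axis for Ndufa4l2 and Cox7a1 and from 0 for the others; filled points are dTAG13 and open points DMSO, shapes are cell lines and bars are means of 3 libraries. Ndufa4l2 reaches 565 to 647 in DE1 with dTAG13, against 148 to 175 in DE1 with DMSO, and every DE1 and DE2 library of Ndufaf4 lies below every EPI library.

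Regulators of mitochondrial biogenesis were called with dTAG13 in DE1 and DE2. Myc, a factor known to act on mitochondrial gene expression, averaged 238 ± 29.7 with dTAG13 in DE1, against 1826 ± 202 with DMSO (SD, n = 3 each), a log2 fold change of -2.93 ± 0.22 (SE), and 358 ± 147 with dTAG13 in DE2, against 1618 ± 114 with DMSO, a log2 fold change of -2.27. Ppargc1b averaged 35.2 ± 20.7 with dTAG13 in DE2, against 351 ± 135 with DMSO, a log2 fold change of -3.36 ± 0.35 (SE). Of the 9 regulators tested, 0 rose and 1 fell in DE1, and 1 rose and 2 fell in DE2. Of the 21 genes of the TCA list, 2 rose and 0 fell in DE1, and 2 rose and 1 fell in DE2. Of all genes tested, 3.74% rose and 4.02% fell in DE1, and 8.65% rose and 8.31% fell in DE2, and a count of 1 or 2 genes in such short lists is not read as a result about them. Pdha1, the catalytic subunit of pyruvate dehydrogenase, rose at both stages (0.33 and 0.56), while Pdk2, a kinase that inhibits that enzyme, fell in DE2 (-2.22 ± 0.29, SE). Of 77 mitochondrial ribosome proteins 0 were called in DE1, and in DE2 4 rose and 0 fell, shares below those of all genes, with Mrps6 at 0.93 on the log2 scale. With the line as a block those counts were 1 rise and 2 falls in DE1, beside 15.8% of all genes called, and 11 rises and 4 falls in DE2, beside 27.5%.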

How the data were processed

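The values are the authors' deposited signal per gene, read counts divided by DESeq2 size factors, with mm10 as build, both per the submitters' processing notes and without versions. No source used here names the aligner, the counting or its use of strand. Whole reads could not be recovered (58.4 to 72.9% of values under 6 reads came within 0.1 of a whole number), so no count model was run, and raw depth is unknown.

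Genes with at least 10 in at least 3 of 24 libraries (15037) were fitted as log2(value + 1) with limma 3.58.1 (R 4.3.3; trended, robust variance; 8 group means, 16 residual degrees of freedom) and Benjamini-Hochberg adjustment, in 13 comparisons: dTAG13 against DMSO at each stage, 3 steps between stages in each arm, and 3 differences of the dTAG13 effect. This test was checked on simulated data. Tables and figures used Python 3.11.15, pandas 2.3.3 and matplotlib 3.10.9. Exon length and coordinates are from GENCODE M21 (GRCm38), which holds all 100 members.

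A replicate number stands for a cell line and thus pairs the libraries: deviations of the 2 treatments from their group means correlated at 0.0703 to 0.381 within a line, the highest with its own line in 12 of 12 cases. Fits with the line as a block are given where they change a member's call in a dTAG13 comparison or a difference of the effect. Calls that change with the block among list genes or in steps between stages are not all given.

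The members and lists were chosen with earlier results of these data known. The rule for named genes took every mitochondrial member, in each complex and comparison the 2 called members with the smallest adjusted p in each direction, every member called with dTAG13, the isoforms of complexes IV and V, and in each list the 2 genes with the smallest p. Ndufa9, Atp5b, Atp5d, Ndufs7, Ndufs8, Ndufaf6, Sdhb and the members called only with the block were named after their values were seen. Alternatives were equal totals, quantile normalisation, other pseudocounts and filters, fits on the compared groups alone, the block and leaving out each line.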

Additional observations from a re-analysis of the deposited data

How the results depend on the processing

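None of the 106 pairs of a named gene and a comparison, all called in the reported fit, changed sign under any alternative. With the block, the other filters or the compared groups alone, the fold change stays the same by design, so no sign could change. Medians were judged only by the size of their shift, so a change of sign in a median near 0 could pass unmarked. Among the values of 106 pairs of a named gene and a comparison, the call held for 103 with the line as a replicate block, 102 with equal totals, 97 with quantile normalisation, 90 in fits on the compared groups alone, 101 with no filter, 105 with log2(value + 5), and 106 each with log2(value + 0.5) and a mean of at least 50. Without 7H it held for 88, without 7H1 for 61 and without 7H2 for 59. These fits have fewer libraries. Shares of all genes called were computed only for the reported fit and for the block. For the changes that follow, the cause was not tested. Members called with dTAG13 in DE1, 0 as reported, numbered 1 with log2(value + 5), 2 with the block and 4 on the compared groups alone. In DE2, 3 as reported, they numbered 6 with equal totals, 7 with quantile normalisation, 17 with the block and 0 to 1 without a line. The difference of the effect between DE2 and DE1, 0 as reported, called 2 with equal totals, 1 with quantile normalisation and 3 with the block.

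On the compared groups alone, rises from EPI to PS numbered 12 with dTAG13 and 9 with DMSO, falls with dTAG13 3, and rises from DE1 to DE2 2 in each arm. That last count with dTAG13 was 1 with quantile normalisation. Leaving out a line gave 5 to 44 rises and 1 to 3 falls from EPI to PS with dTAG13, and 2 to 14 and 1 to 3 with DMSO. From PS to DE1 it gave 5 to 8 rises and 10 to 23 falls with dTAG13, and 5 to 14 and 7 to 17 with DMSO. From DE1 to DE2 it gave 0 to 1 rises and 35 to 46 falls with dTAG13, and 24 to 38 falls with DMSO. With quantile normalisation the mitochondrial median from DE1 to DE2 with DMSO was 0.14 in place of 0.00, and with equal totals the mitochondrial sum of DE1 with DMSO was 520975. The unknown raw depth and counting method limit what can be said of members with low values such as Ndufa4, Ndufa9 and Atp5s. These values are not read as low expression.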
